A study of Mus musculus with 195 samples.

Results

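The 7 genes Nodal, Lefty1, Lefty2, Tdgf1, Smad7, Skil and Acvr2b belong to the Nodal, Lefty and Cripto signalling pathway, and they were taken by name from a table of 19736 genes that BATSeq measured in single mouse cells. BATSeq copies polyadenylated RNA with a primer that carries a cell barcode and a unique molecular identifier (UMI), so that copies of the same RNA made during amplification count once, as 1 molecule, and the base at which the tail begins marks the polyadenylation site. The embryonic stem cells (ESCs) were of the line 46C, a derivative of E14tg2a with GFP placed at Sox1, and were grown on gelatin. ESC-2i cells were kept without serum in N2 and B27 medium with 10 ng/ml LIF, 1 µM of the MEK inhibitor PD0325901 and 3 µM of the GSK3 inhibitor CHIR99021. ESC-FCS cells were kept in GMEM with 10% serum and 10 ng/ml LIF. Neural stem cells (NSC) were derived from the same line by sorting for Sox1-GFP and were grown in N2 and B27 medium with EGF and bFGF, each at 10 ng/ml. Small cells in G0/G1 were sorted by DNA content and size, and 48 cells of each population were prepared in 2 library batches of 24. A further 48 ESC-FCS control cells, 1 pool of 48 ESC-FCS cells made on the same day, and 2 pools of 48 ESC-2i cells were sequenced apart. The labels name no replicate cultures, so no test between populations was made, and all intervals given for levels, ratios and shares cover counting error only.

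Nodal is a secreted ligand of the TGF-beta superfamily that signals through activin receptors to Smad2 and Smad3 and needs a co-receptor of the Cripto family, of which Tdgf1 is a member. The pathway induces its own secreted inhibitors, Lefty1 and Lefty2, and it is known for patterning the early embryo and for its activity in pluripotent cells. Smad7 is an inhibitory Smad that acts on the receptors, Skil (SnoN) is a nuclear repressor of Smad complexes, and Acvr2b is a type II activin receptor.

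BATSeq reads the last bases of each transcript, and these ends show which sequence stood for a gene. A stretch of 30 bases at the annotated end is given for Nodal, both Lefty genes, Tdgf1 and Skil, which held most of the molecules, and for the second end of Tdgf1, whose share is compared between libraries. The bases were taken from GENCODE M21 transcripts on GRCm38, on the strand of the gene, with the AATAAA or ATTAAA hexamer that marks many polyadenylation sites in capitals. The Tdgf1 ends held neither of these hexamers in the 40-base window that was searched, which says only that these letters are not in this window.
Nodal, chr10:61425309-61425338, plus strand: ccaagtctATTAAAagtctgtgacaattca
Tdgf1 distal end, chr9:110939603-110939632, minus strand: gcacagtaaaaatgggaactctgaacaaaa
Tdgf1 proximal end, chr9:110939684-110939713, minus strand: tgtttattattgtagtagtaaaccagatta
Lefty1, chr1:180938371-180938400, plus strand: tagatgtgAATAAAatatgctttgttttgt
Lefty2, chr1:180899074-180899103, plus strand: agtatcAATAAAagactggggcaagagaaa
Skil, chr3:31122547-31122576, plus strand: attcccAATAAAaacttttaatgccaatga

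In the same window, on the strand of the gene, 70.3% of 8709 ends held AATAAA and 17.7% held ATTAAA. These were 1 annotated end per gene, within 10 nt of the gene's most used site in the main populations. They are no background for second ends such as the proximal end of Tdgf1. Lefty1 and Lefty2 are neighbours 35.9 kb apart on chromosome 1, and their transcripts of 1620 and 2473 bases share a longest identical run of 140 bases. In the last 300 bases before the annotated ends the longest identical run was 8 bases. Sequence at Lefty2 sites farther upstream was not compared, such as the site 659 nt upstream with 8 of 77 molecules in the second ESC-2i pool.

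Cells with at least 1000 molecules on genes were used, which left 33 ESC-2i, 33 ESC-FCS, 41 NSC and 42 control cells. Molecules per cell ran from 5342 to 21050 in ESC-2i (median 10864), from 1079 to 14819 in ESC-FCS (median 6375), from 1234 to 9037 in NSC (median 3282) and from 1323 to 14547 in the control cells (median 4723.5). The ESC-FCS pool held 179155 molecules, and the ESC-2i pools held 479483 and 494799. All 48 pairs of library and cell barcode of the control cells were shared with ESC-2i cells of the main data. Levels are molecules of a gene among each 10000 on genes, summed over all cells of a population, and since each molecule is counted at its end they need no scaling by length. Summed ESC markers stood at 27.5 to 36.3 per 10000 in every ESC set and at 1.32 in NSC, and summed neural markers stood at 45.9 in NSC and at most 0.971 elsewhere, led by Fabp7 with 376 molecules in NSC. Of the 10 ESC markers 4 were detected in NSC, and of the 10 neural markers 7 were, with Pax6, Sox1 and Gfap at 0. As many neural markers, 7, were detected in ESC-2i and in ESC-FCS cells, so the summed level and not the count set NSC apart. Summed trophoblast markers stood at no more than 0.733 and summed fibroblast markers at no more than 0.132 in any set.

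The 7 genes together made up 12.4 molecules per 10000 in ESC-FCS, 7.11 in ESC-2i and 0.593 in NSC. In ESC-FCS all 7 were detected, in ESC-2i both Lefty genes were at 0 molecules, and in NSC Skil and Acvr2b alone had a molecule. Tdgf1 was the most abundant in both ESC populations, and it was joined by Lefty1 in ESC-FCS and by Nodal in ESC-2i.

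**Figure D1:**
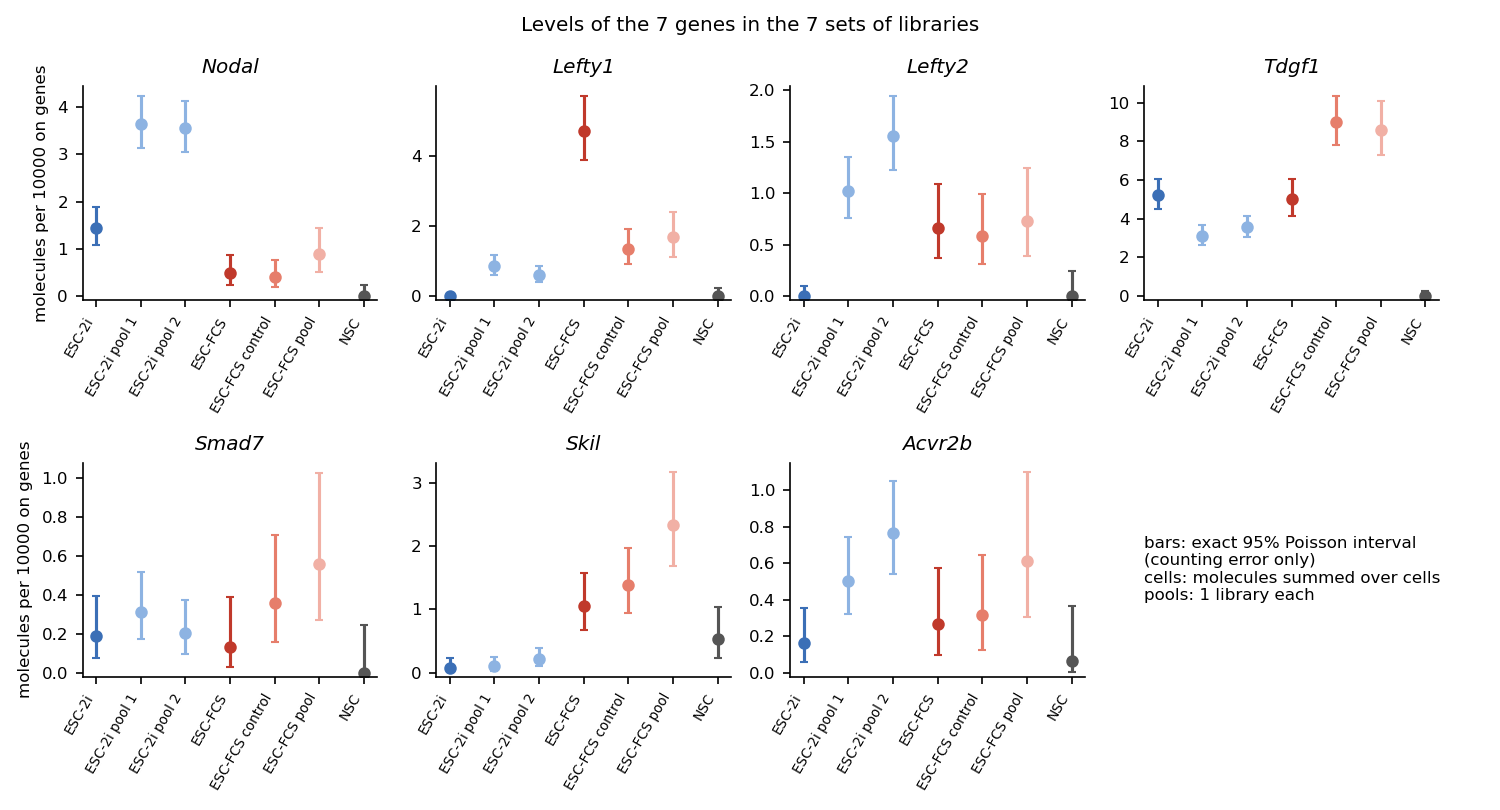
Levels of the 7 genes in molecules per 10000 molecules on genes in the 7 sets of libraries, with 95% exact Poisson intervals as bars. Lefty1 and Skil lie above every ESC-2i set in all 3 ESC-FCS sets, Nodal lies below, and the NSC level is 0 for 5 of the genes.

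Nodal, the ligand, was higher in ESC-2i. Cells of ESC-2i held 0 to 7 Nodal molecules (median 1), with 53 molecules in 26 of 33 cells, or 1.44 per 10000 (95% interval 1.08 to 1.88). ESC-FCS cells held 0 to 3 (median 0), with 11 molecules in 9 of 33 cells, or 0.485 per 10000 (0.242 to 0.868). The populations overlapped at 0 to 3 molecules per cell, and the pooled level in ESC-FCS was 2.97-fold lower (95% interval 1.53 to 6.30). The control cells stood at 0.403 per 10000 with 9 molecules, close to the ESC-FCS cells. NSC had none in 41 cells, where the upper limit of the exact interval was 0.243 per 10000 (0.198 at a floor of 3 molecules).

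Tdgf1, the co-receptor also called Cripto, was at nearly equal levels in the main ESC populations. ESC-2i cells held 0 to 20 molecules (median 5), with 193 molecules in 31 of 33 cells, or 5.24 per 10000 (4.53 to 6.03). ESC-FCS cells held 0 to 13 (median 2), with 114 molecules in 27 of 33 cells, or 5.03 per 10000 (4.15 to 6.04). The ratio of ESC-FCS to ESC-2i was 0.960 with an interval of 0.755 to 1.22, so a difference of 2-fold either way lay outside it. The control cells held 0 to 19 (median 3.5), with 201 molecules in 37 of 42 cells, or 9.01 per 10000, which was 1.79-fold above the ESC-FCS cells (1.42 to 2.28). Tdgf1 was at 0 in all 41 NSC.

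Acvr2b, the receptor, was sparse in every set, with no more than 1 molecule in any cell. It had 6 molecules in ESC-2i (0.163 per 10000), 6 in ESC-FCS (0.265), 7 in the control cells (0.314) and 1 in NSC. The ratio of ESC-FCS to ESC-2i was 1.62 with an interval of 0.434 to 6.08, so that a difference was not detectable at this depth.

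Lefty1, a secreted antagonist, was detected in ESC-FCS and not in ESC-2i or NSC among the main populations. ESC-FCS cells held 0 to 21 Lefty1 molecules (median 1), with 107 molecules in 25 of 33 cells, or 4.72 per 10000 (3.87 to 5.70). None of the 368362 molecules of the 33 ESC-2i cells was from Lefty1, which allows a level of up to 0.0814 per 10000 at a floor of 3 molecules, slightly under the upper limit of the exact interval. Set against that floor over the ESC-2i cells, ESC-FCS was at least 58.0-fold higher (log2 ratio 5.86), and the lower limit of the exact interval of the ratio, which also covers the counting error of ESC-FCS, was 46.3-fold. The level was 4.45 in the first library batch of ESC-FCS and 5.08 in the second. The control cells held 0 to 9 molecules (median 0), with 30 molecules in 10 of 42 cells, or 1.34 per 10000, which was 3.51-fold below the ESC-FCS cells of the main data (2.32 to 5.45). The spread between these sets of the same label was therefore beyond counting error for Lefty1.

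Lefty2, its paralogue, had the same direction at a lower level. ESC-FCS cells held 0 to 6 molecules (median 0), with 15 molecules in 7 of 33 cells, or 0.662 per 10000 (0.370 to 1.09). ESC-2i cells had none, and ESC-FCS was at least 8.13-fold higher against the same floor, with a lower limit of 5.83-fold. The control cells were at 0.583 per 10000 with 13 molecules in 7 of 42 cells, close to the main ESC-FCS cells.

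Skil, the nuclear repressor, was also higher in ESC-FCS. ESC-FCS cells held 0 to 4 molecules (median 0), with 24 molecules in 15 of 33 cells, or 1.06 per 10000 (0.678 to 1.58). ESC-2i cells held 3 molecules in all, in 3 cells, or 0.0814 per 10000. The ratio was 13.0, with an interval of 3.95 to 67.4. The control cells held 31 molecules in 18 of 42 cells, or 1.39 per 10000. Smad7, the inhibitory Smad, had 3 molecules in ESC-FCS (0.132 per 10000), 7 in ESC-2i (0.190) and 8 in the control cells (0.359), with intervals that overlapped, and none in NSC.

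**Figure D2:**
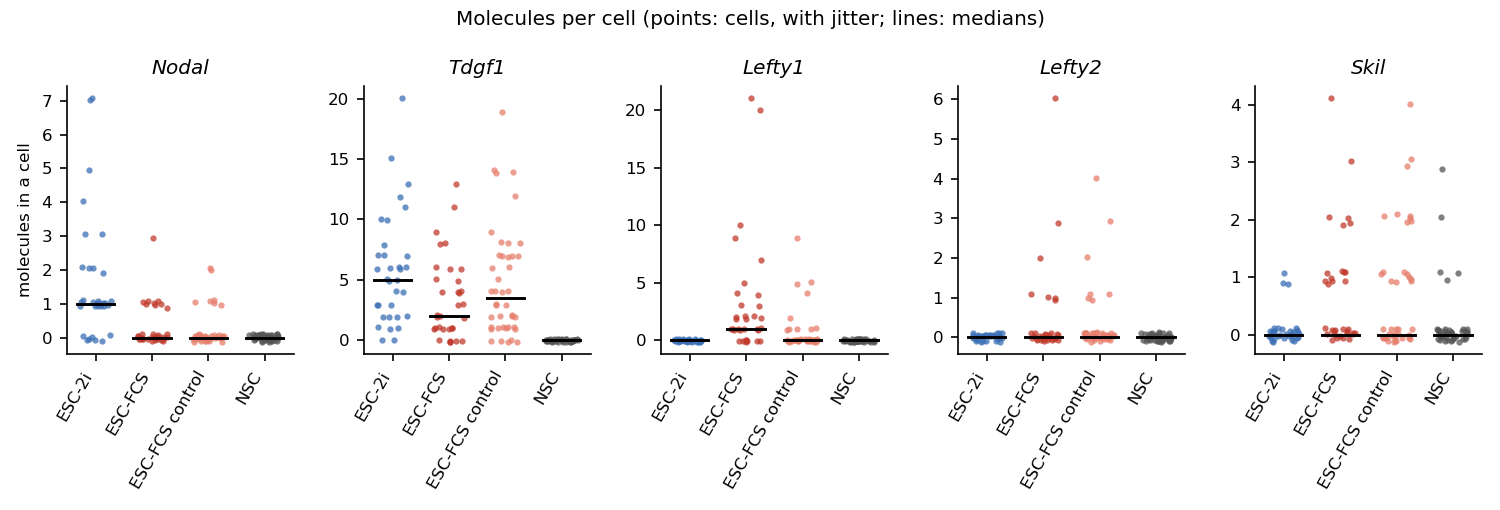
Molecules per cell (y axis) of Nodal, Tdgf1, Lefty1, Lefty2 and Skil in cells of ESC-2i, ESC-FCS, the ESC-FCS control and NSC, with 1 point per cell, shifted slightly at random to part equal values, and a line at the median. Lefty1 lies at 0 in every ESC-2i cell and reaches 21 molecules in ESC-FCS, whereas Tdgf1 is above 0 in most ESC cells of each medium.

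Setting the limit at 2-fold, 3 of the 7 genes were higher in ESC-FCS than in ESC-2i (Lefty1, Lefty2 and Skil), where 11.1% of 7636 genes with at least 10 molecules were. Nodal alone was lower, where 17.7% of genes were. Scaled by spike-in molecules, the split over all genes moved to 48.6% higher and 4.37% lower with the median of all genes at a log2 ratio of 0.95 (−0.09 per molecule on genes). On that scale Nodal was at −0.52, below the median gene but within 2-fold, and Tdgf1 turned from −0.06 to 0.98. In the second library batch Lefty1 alone passed, since Lefty2 and Skil fell under 10 molecules, and Nodal was at 0.726 per 10000 in ESC-FCS and 1.39 in ESC-2i (0.307 and 1.49 in the first batch).

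ESC-2i cells were deeper than ESC-FCS cells, and the shares of cells with a molecule were read at an equal depth too. Thinned to 1000 molecules per cell, which left out no cell, 13.0% of ESC-2i and 4.34% of ESC-FCS cells had a Nodal molecule (78.8% and 27.3% before thinning). For Lefty1 the share in ESC-FCS was 30.7% (75.8% before thinning). For Skil it was 11.0% in ESC-FCS and 0.812% in ESC-2i (45.5% and 9.09%). For Tdgf1 it was 36.3% in ESC-FCS and 38.3% in ESC-2i. The order of the populations was the same as in the pooled levels for each of these genes.

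In NSC, where the summed ESC markers were low though Sox2, which neural stem cells also express, held 17 molecules, 5 of the 7 genes were at least 2-fold below ESC-FCS, where 21.0% of 6214 genes were. Tdgf1 was at least 25.5-fold lower, Lefty1 at least 23.9-fold, Lefty2 at least 3.35-fold and Nodal at least 2.46-fold, each against 3 molecules over the 41 NSC. The lower limits of the exact intervals were 20.4, 19.1, 2.40 and 1.68, so that for Nodal counting error reached below 2-fold. Skil stayed detectable in NSC, with 8 molecules in 5 of 41 cells, or 0.527 per 10000 (0.227 to 1.04). It was 2.01-fold below ESC-FCS with an interval of 0.874 to 5.18, and the log2 ratio was −1.01 over both batches but 0.68 in the second batch alone. Skil lay just past the limit and was under 2-fold in cells of at least 2000 molecules (−0.89), in all 48 cells (−0.82), without the mitochondrial genome (−0.96), with reads in place of molecules (−0.87) and with all 109 cells (−0.99), which left 4 of the 7 lower. Smad7 and Acvr2b had too few molecules for a ratio. Per spike-in molecule the median log2 ratio of all genes was −1.25 (0.09 per molecule on genes), with 7.79% of genes higher and 58.0% lower in NSC (25.1% and 21.0% per molecule on genes).

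The pools were made apart from the single cells and compared the media once more. A pool gives 1 level, in which fewer cells that express a gene and less RNA per cell cannot be told apart. Skil was at 2.34 per 10000 in the ESC-FCS pool with 42 molecules, and at 0.104 and 0.222 in the ESC-2i pools with 5 and 11. It was 22.5-fold (8.91 to 72.8) and 10.5-fold (5.34 to 22.7) higher in the ESC-FCS pool. Tdgf1 was at 8.60 per 10000 in the ESC-FCS pool and at 3.13 and 3.58 in the ESC-2i pools, 2.75-fold (2.18 to 3.46) and 2.40-fold (1.92 to 3.00) higher. These were the 2 genes of 7 above both ESC-2i pools by 2-fold or more, where 16.9% of 7979 genes were. Nodal was 4.09-fold (2.45 to 7.31) and 3.98-fold (2.39 to 7.12) lower in the ESC-FCS pool, and it was the only one of the 7 below both, where 25.7% of genes were. Smad7 stood at 0.558 in the ESC-FCS pool and at 0.313 and 0.202 in the ESC-2i pools, and Acvr2b at 0.614 beside 0.501 and 0.768.

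The Lefty genes behaved otherwise in the pools. Lefty1 was at 1.67 per 10000 in the ESC-FCS pool and at 0.855 and 0.606 in the ESC-2i pools, 1.96-fold (1.18 to 3.21) and 2.76-fold (1.61 to 4.74) higher. Lefty2 was at 0.726 in the ESC-FCS pool and at 1.02 and 1.56 in the ESC-2i pools, with ratios of 0.710 (0.353 to 1.33) and 0.466 (0.238 to 0.845). The order was opposite to that in the cells, and against the first pool the interval held equal levels. The ESC-2i pools thus held 41 and 30 Lefty1 and 49 and 77 Lefty2 molecules, where the ESC-2i cells held none. At the levels of the pools, the ESC-2i cells would have held 31.5 or 22.3 Lefty1 and 37.6 or 57.3 Lefty2 molecules at their depth. Both genes were also at 0 in all 48 ESC-2i cells before the limit on depth, over 371535 molecules.

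Against ESC-2i cells, both pools were at least 2-fold higher in 4 of the 7 genes, where 30.2% of 8780 genes were, and in none of the 7 at least 2-fold lower, where 14.6% were. These were Nodal (2.54-fold and 2.47-fold), Lefty1 (at least 10.5-fold and at least 7.44-fold), Lefty2 (at least 12.5-fold and at least 19.1-fold) and Acvr2b (3.07-fold and 4.71-fold). For the Lefty genes the lower limits of the exact intervals were 8.16 and 5.69, and 9.83 and 15.2. Tdgf1 was at 0.597 and 0.683 of its level in the cells. Of the primitive endoderm markers Lama1 alone was clearly higher in the ESC-2i pools, with 147 and 116 molecules (3.07 and 2.34 per 10000, beside 0.706 in the cells). Gata4, Dab2 and Col4a1 had no more than 2 molecules in either pool, and Pdgfra had 0. Gata6 and Sox7 were at 0 in every set. The sum of the list ran from 0.134 to 3.09 per 10000 over all sets, so its rise in the pools was that of 1 gene. Reads per molecule were 12.4 in ESC-2i cells and 3.27 and 4.95 in the pools, and the part of these differences in the Lefty levels was not tested.

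The order of sets was the same for 3 genes throughout. Lefty1 and Skil were higher in all 3 ESC-FCS sets (cells, control cells and pool) than in all 3 ESC-2i sets (cells and both pools), as were 8.38% of 11761 genes. Nodal was lower in all 3, as were 14.1%. These are orders of point values, and some counting intervals overlapped. For Lefty1 the interval of the control cells (0.907 to 1.92) overlapped that of the first ESC-2i pool (0.614 to 1.16). For Nodal that of the ESC-FCS pool (0.510 to 1.45) overlapped that of the ESC-2i cells (1.08 to 1.88). Between the control cells and the ESC-FCS cells of the main data, Lefty1 was the only one of the 7 at least 2-fold lower in the control cells, where 11.9% of 6531 genes were, and Smad7 the only one at least 2-fold higher (2.71-fold, interval 0.650 to 15.9), where 18.4% were. In ESC-FCS sets Tdgf1 ranked first, and Lefty1 was level with it within counting error in the main cells alone.

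Lefty1 varied more between ESC-FCS cells than technical noise plus the margin of the test allowed. The test of Brennecke and colleagues compares the squared coefficient of variation (CV2) with that of spike-in transcripts plus a margin of 0.25, for genes with a normalized mean above 0.5. Lefty1 had a mean of 2.53 and a CV2 of 1.56, where 0.555 was the technical part, with a Benjamini-Hochberg adjusted p of 0.0413. Of the 3 genes of the 7 that could be tested it alone passed, at an adjusted p limit of 0.1, where 3.85% of 2026 genes passed. Tdgf1, at a similar mean of 2.65, had a CV2 of 0.691 where 0.529 was technical, and an adjusted p of 1. Skil had an adjusted p of 0.487, and the other 4 genes had means too low to be tested. The technical parts come from a curve fitted to 9 spike-ins with normalized means of at least 2.72. The means of all 3 tested genes lay below that, so their technical parts are extrapolated. Fitted to 17 spike-ins with means of at least 0.5, the technical part of Lefty1 was 0.480. The adjusted p of this test was then 0.00642, where 142 of 2026 genes passed.

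The call for Lefty1 did not hold in every setting of the test. The adjusted p was 9.46e-06 with no margin and 0.837 with a margin of 0.5, and it was 0.290 and 0.106 in the first and second library batch alone. Without the cell with most Lefty1 molecules it was 0.0505, and with the means tested limited to above 2 it was 0.0502. In the control cells Lefty1 was below the mean limit, and none of the 7 that could be tested passed in the control cells or in ESC-2i, where 6.09% of 1690 and 0.719% of 3616 genes passed. At an unadjusted p under 0.05, 176 genes passed in ESC-FCS, 171 in the control cells and 100 in ESC-2i.

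A few cells held most of the Lefty1 molecules. The 5 ESC-FCS cells with most Lefty1 held 7 to 21 molecules each and 67 of the 107 in all (62.6%), with 25.9% of the molecules on genes. The same 5 cells held 9 of the 15 Lefty2 molecules, 38 of 114 of Tdgf1, 5 of 11 of Nodal and 1 of 24 of Skil. In the control cells the 5 cells with most Lefty1 held 25 of 30 molecules (83.3%). The cells were ranked by Lefty1 itself, so these shares are a description alone.

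Every ESC-FCS cell with a Lefty2 molecule also had Lefty1, in 7 of 7 cells, and 18 cells had Lefty1 without Lefty2. In the control cells 2 of the 7 cells with Lefty2 had Lefty1 and 5 had none. With Lefty1 in 25 of 33 ESC-FCS and 10 of 42 control cells, unrelated genes would give 5.30 and 1.67 such cells, near the 7 and 2 seen. Corrected for the depth of each cell, the residual counts of Lefty1 and Lefty2 had a Pearson r of 0.51 over the 33 ESC-FCS cells, and of 0.22 over the 42 control cells. Among 2469 genes the median r with Lefty1 in ESC-FCS was −0.0211, with 5% to 95% of genes between −0.291 and 0.320. The value rested on 1 cell with 20 Lefty1, 6 Lefty2 and 13 Tdgf1 molecules, without which r was 0.13, and it was 0.75 in the first library batch and 0.10 in the second. The cells of a set share a label and library batches and differ in depth, and counts this sparse give no more than a description.

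**Figure D3:**
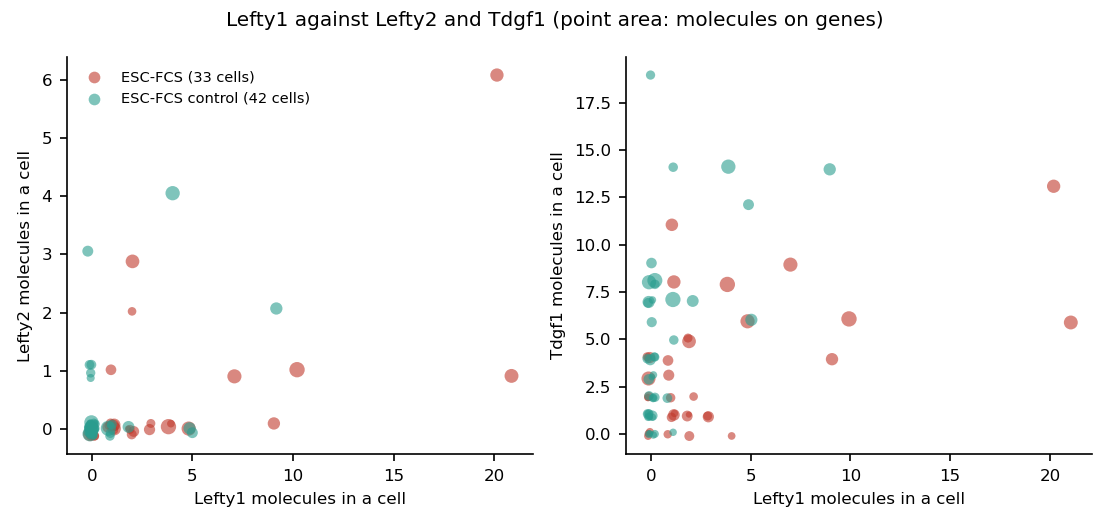
Lefty1 molecules per cell (x axes) against Lefty2 and Tdgf1 molecules per cell (y axes) in 33 ESC-FCS and 42 control cells, with 1 point per cell, shifted slightly at random to part equal values, and point areas that grow with the molecules on genes. In ESC-FCS 1 cell with 20 Lefty1 molecules also has 6 of Lefty2, and 5 of the 7 control cells with Lefty2 have no Lefty1.

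For the other pairs, r between ESC-FCS cells was 0.27 for Lefty1 and Tdgf1 (0.24 in the control cells), 0.41 for Lefty2 and Tdgf1 (0.03) and 0.18 for Nodal and Lefty1 (−0.09). For Lefty1 and Skil it was −0.27 in ESC-FCS and 0.19 in the control cells, opposite in sign. Among genes with 0.5 or more molecules per cell on average, those most like Lefty1 between ESC-FCS cells were Cyb5r1 (r = 0.667), Meg3 (0.656), Ndufb7 (0.632), Manf (0.583) and Ndufb3 (0.571). Ndufb3 and Ndufb7 encode subunits of respiratory complex I, and Meg3 is an imprinted noncoding RNA. In the control cells the same 5 genes had r of −0.0823, −0.0864, −0.0165, 0.0380 and 0.265, so that the values of the first 4 were not seen again.

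Among 55 genes of the pathway listed by role, 26 had at least 10 molecules over ESC-FCS and ESC-2i, of which 6 were higher and 6 lower in ESC-FCS, with a median log2 ratio of 0.09 where the median of all genes was −0.09. The 19 that are not among the 7 gave 3 higher and 5 lower, beside the 11.1% and 17.7% of all genes. Of the ligands and their processing enzymes 4 of 13 passed the filter and 2 were lower, Nodal and Pcsk6, a convertase that processes Nodal. Pcsk6 had 62 molecules in ESC-2i and 5 in ESC-FCS and was 7.63-fold lower (3.10 to 24.3). Of 9 receptors and co-receptors 3 passed the filter and none was 2-fold apart.

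Of 6 Smads and nuclear partners all passed the filter and 1 was lower. Smad3, which carries the signal to the nucleus, had 17 molecules in ESC-2i and 2 in ESC-FCS (5.23-fold lower, 1.24 to 46.7). Smad2, its partner, had 17 and 13 molecules and Smad4, which joins both in a complex, had 27 and 18, and neither was 2-fold apart. Of the secreted and membrane antagonists 3 of 7 passed the filter and the Lefty genes were the 2 that were higher.

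Of 10 intracellular negative regulators 9 passed the filter, and 4 were higher and 2 lower in ESC-FCS, beside 11.1% and 17.7% of all genes. Beside Skil, Ppm1a, a phosphatase of Smads, was higher (27 molecules in ESC-2i and 38 in ESC-FCS, 2.29-fold, 1.36 to 3.90). Tgif2, a corepressor of Smads, was 3.02-fold higher (7 and 13 molecules, 1.12 to 8.93). Smurf1, a ubiquitin ligase, was 2.11-fold higher (10 and 13), with an interval of 0.856 to 5.38 that held equal levels. Ski, the close relative of Skil, had 40 and 12 molecules and was 2.05-fold lower (1.06 to 4.30). Pmepa1, which inhibits Smad activation, had 11 and 0 and was at least 2.26-fold lower, set against 3 molecules over ESC-FCS. Of 10 mesendoderm targets, Eomes alone passed the filter, with 10 and 0 molecules (at least 2.05-fold lower). The lower limits of the exact intervals were 1.54-fold for Pmepa1 and 1.38-fold for Eomes, under the 2-fold limit. Pcsk6, Smad3, Ski, Pmepa1 and Eomes were lower in all 3 ESC-FCS sets than in all 3 ESC-2i sets, as were 14.1% of 11761 genes. Ppm1a, Tgif2 and Smurf1 were not higher in all 3. Smurf1 stood at 0.134 per 10000 in the control cells and 0.167 in the ESC-FCS pool. These 2 levels lay below every ESC-2i set (0.271 in the cells, 0.730 and 0.990 in the pools).

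**Figure D4:**
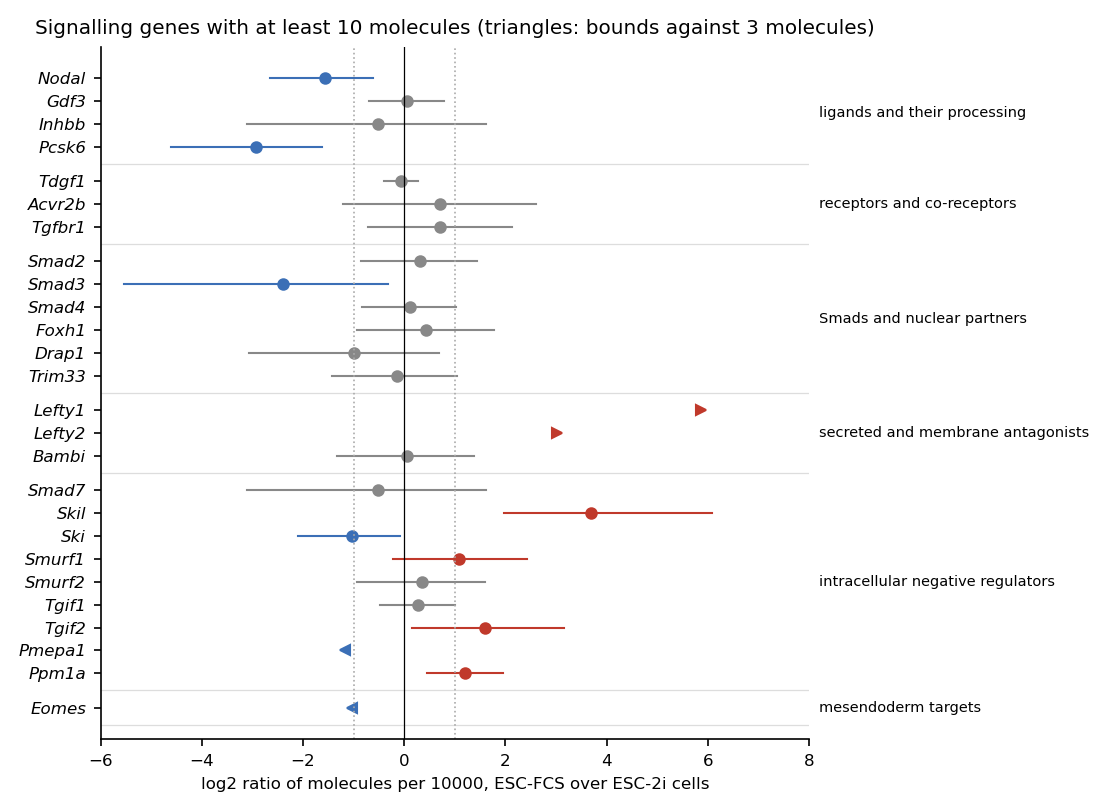
Log2 ratio of ESC-FCS to ESC-2i cells (x axis) for 26 pathway genes with at least 10 molecules, grouped by role, with 95% counting intervals as lines, bounds as triangles where a population is at 0, and dotted lines at 2-fold. Lefty1, Lefty2 and Skil stand farthest to the right, and Pcsk6, Smad3 and Nodal farthest to the left.

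Most members ended at 1 main polyadenylation site. Over all libraries the most used site held 98.0% of 440 molecules of Nodal, 98.7% of 238 of Lefty1, 79.0% of 124 of Skil, 74.0% of 989 of Tdgf1, 59.1% of 93 of Acvr2b, 58.5% of 53 of Smad7 and 53.3% of 167 of Lefty2. In the ESC-FCS cells 107 of 107 Lefty1 molecules ended at the annotated end of that sequence, within 10 nt (100%, 95% Clopper-Pearson interval 96.6% to 100%). Of the Acvr2b molecules 81.7% ended past the GENCODE end of the gene, by up to 7151 nt, and before its RefSeq end at position 119442148. The main site of Smad7 held 7 of 7 molecules in ESC-2i cells and 9 of 10 in the ESC-FCS pool, but 5 of 15 and 1 of 10 in the ESC-2i pools, where another site held 6 of 15 and 6 of 10.

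Tdgf1 used a distal end and a proximal end 75 nt upstream of the nearest annotated end. The proximal end held 21.2% of molecules in ESC-2i (41 of 193, 15.7% to 27.7%), 24.6% in ESC-FCS (28 of 114, 17.0% to 33.5%) and 17.4% in the control cells (35 of 201, 12.4% to 23.4%). These intervals overlapped. In the pools it held 13.0% in ESC-FCS (20 of 154), and 39.3% (59 of 150, 31.5% to 47.6%) and 18.1% (32 of 177, 12.7% to 24.6%) in ESC-2i, so that the pools of the same medium differed by more than counting error. For Lefty2 a site 43 nt upstream of the nearest annotated end held 7 of 15 molecules in ESC-FCS (46.7%, 21.3% to 73.4%), 0 of 13 in the control cells and 2 of 13 in the ESC-FCS pool. The annotated end held 3 of 15, 12 of 13 and 6 of 13 molecules in these sets.

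**Figure D5:**
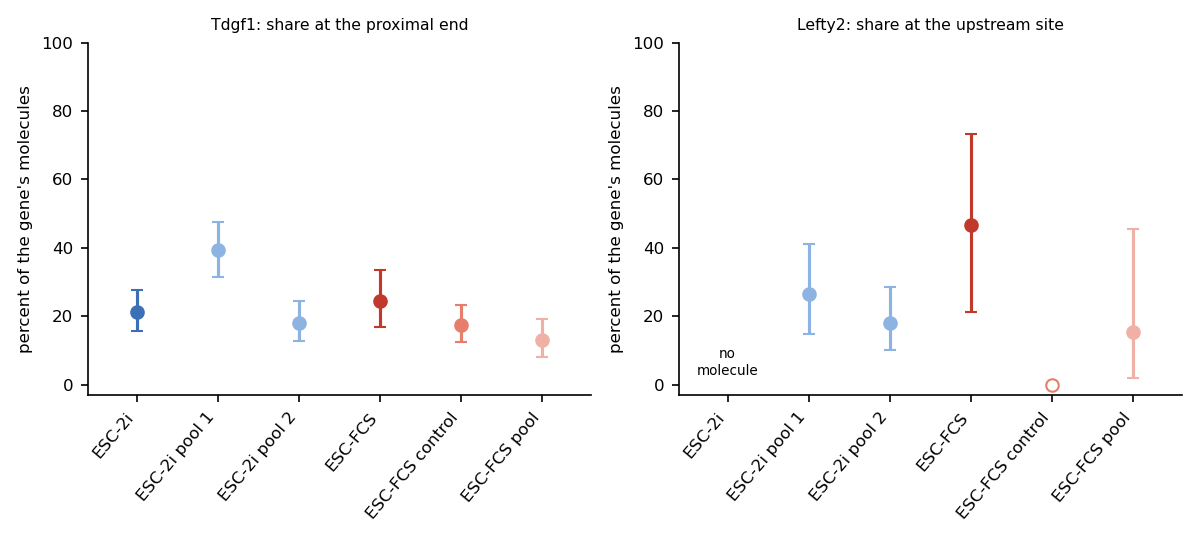
Share of molecules (y axis, percent) at the proximal end of Tdgf1 and at the upstream site of Lefty2 in the ESC sets of libraries (x axis), with 95% Clopper-Pearson intervals as bars and an open circle where no molecule was at the site. The share of Tdgf1 runs from 13.0% to 39.3%, with the extremes both in pools, and that of Lefty2 is 0 of 13 in the control cells.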

How the data were processed

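Molecules (UMIs) and reads were counted per polyadenylation site and cell, and summed per gene, by the authors. The deposited counts are not normalized. The authors aligned reads to GRCm38, merged UMIs and positions within 12 nt and removed reads likely to come from priming inside transcripts. The submitters' processing notes name HTSeq and R 3.0.2. The table of genes held 107 of the 109 cells with at least 1000 molecules, and these were used. For control cells and pools, molecules were summed over sites, with antisense sites left out. The names of the last columns of the single-cell tables are exchanged, so columns were read by content. The table of isoforms was not used. Mitochondrial genes were kept.

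Populations came from the labels, which name no cultures, so each population was treated as 1. Depth per cell, given with the values, limits the precision, so levels carry exact Poisson intervals, ratios exact conditional intervals and shares Clopper-Pearson intervals, at 95%. A population at 0 was set to 3 molecules. Genes needed 10 molecules over both populations and 2-fold was the limit. The Brennecke test, with a margin of 0.25, a normalized mean above 0.5, Benjamini-Hochberg adjustment and a limit of 0.1, was written in Python 3.11.15 (scipy 1.17.1, numpy 2.4.6, pandas 2.3.3), and plots used matplotlib 3.10.9. On simulated data it called genes of low mean in excess, so means above 2 were tried as well. Residual correlations compared each count with that set by the depth of the cell. Alternatives were other limits, scaling by spike-ins or reads, single batches and pools left out. Sequences came from GENCODE M21 transcripts. The genes named are the 7, the listed pathway genes 2-fold apart between ESC-FCS and ESC-2i, the 5 most correlated with Lefty1, and the leading markers. The 7 genes and the lists were chosen with earlier results of these data known.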

Additional observations from a re-analysis of the deposited data

Results flagged for a closer look

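For 3 genes the sign of the log2 ratio of ESC-FCS to ESC-2i in the single cells was opposite to that against both ESC-2i pools. Lefty2 had at least 3.02 in the cells and −0.49 and −1.10 against the first and second ESC-2i pool, where the interval for the first held equal levels. Tdgf1 had −0.06 in the cells, where the interval also held equal levels, and 1.46 and 1.26 in the pools. Smad7 had −0.52 in the cells, from 10 molecules in all with an interval that held equal levels, and 0.84 and 1.47 in the pools, where the interval for the first again held equal levels. Both comparisons of pools share the 1 ESC-FCS pool and are not separate results. The share of all genes with such a change of sign was not counted, so the 3 genes have no background beside them. The median log2 ratio of all genes was −0.09 in the cells. It was −0.28 and −0.34 against the first and second ESC-2i pool. The differences between cells and pools were not tested, since each set is 1 value.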

How the results depend on the processing

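The directions between ESC-FCS and ESC-2i cells rested on few molecules for Lefty2, Skil, Smad7 and Acvr2b, and cultures were not replicated, so depth and culture limit what the levels show. No paired analysis was possible because no result comes from a test between groups. The main counts were 3 genes higher and 1 lower in ESC-FCS, 5 lower in NSC, and 6 pathway genes in each direction. Per spike-in molecule 15 pathway genes were higher and 2 lower, and 0 of the 7 were lower in ESC-FCS. On that scale 48.6% of all genes were higher and 4.37% lower, so these counts moved with the scale of all genes. With reads in place of molecules 2 of the 7 were lower in ESC-FCS (23.8% of all genes). With a limit of 3-fold, 3 of the 7 were lower in NSC (11.8% of all genes), and 2 pathway genes and 0 of the 7 were lower in ESC-FCS (8.03%). With at least 20 molecules, and also in the first library batch alone, 3 of the 7 were lower in NSC (18.4% and 22.7% of all genes) and 3 pathway genes were lower in ESC-FCS (14.5% and 16.5%). In the second batch alone 1 of the 7 was higher and 0 lower in ESC-FCS (12.6% and 20.5% of all genes), 2 were lower in NSC (21.1%), 3 pathway genes were higher and 2 lower, and Skil in NSC against ESC-FCS turned to a log2 ratio of 0.68. Against 2 genes higher in the ESC-FCS pool than in both ESC-2i pools, a limit of 1.5-fold gave 4 and one of 3-fold gave 1, and leaving out either ESC-2i pool gave 2 to 4 (4 without the first, with Lefty1 and Smad7 added). The share of all genes is given for 2-fold and both pools alone (16.9%), so these other counts have no background beside them. Of the members called variable between ESC-FCS cells (1), there were 2 with no margin, where 226 of 2026 genes passed. There were 0 with a margin of 0.5 (36 of 2026) or in the first (76 of 2187) or second batch alone (57 of 1885). Of those between control cells (0), there was 1 with no margin (242 of 1690) and with size factors from total molecules (107 of 2089). There was also 1 in cells of at least 2000 molecules (240 of 1894) and in the first batch alone (192 of 2126). In each of these settings of the control cells it was Tdgf1. Over all settings tried, 84 other counts, shares and correlations stayed within 1.5 times, their interval or the spread between batches. For Lefty1 and Lefty2 that spread of r was 0.458 in ESC-FCS and 0.404 in the control cells, too wide to show stability. In the second batch r fell from 0.51 to 0.10 in ESC-FCS and from 0.22 to −0.18 in the control cells. Of the ratios of single genes 94 stayed within their counting interval, 9 left it and the 1 of Skil turned beyond it. Ratios of ESC-FCS to ESC-2i cells under 2-fold also changed sign. Tdgf1 did per spike-in molecule (0.98), with reads (0.21) and in the second batch (0.22). Smad7 did per spike-in molecule (0.52) and Acvr2b with reads (−0.94). The cause of these changes was not tested, apart from the fewer molecules in single batches and the higher limits by construction. The use of all 109 cells, means above 2 and the correlation without the cell with most Lefty2 were chosen after seeing the data.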

Other observations

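Residual correlations of Lefty1 with the 10 genes of the ESC marker list between ESC-FCS cells ran from −0.433 for Esrrb and −0.423 for Klf2, a pair of transcription factors of the naive state, to 0.240 for Utf1, a chromatin-associated factor of pluripotent cells. Another naive factor, Tfcp2l1, was at 0.0595. In the control cells the values were 0.127 for Esrrb, 0.0132 for Klf2, 0.269 for Utf1 and 0.304 for Tfcp2l1. Nanog (−0.196 and −0.0728), Sox2 (−0.210 and −0.119), Klf4 (−0.106 and −0.0780) and Dppa5a (−0.206 and −0.0882) were negative in both sets. Pou5f1 (−0.123 and 0.0240) and Zfp42 (−0.175 and 0.0769) changed sign. These 6 genes lay within the range of 5% to 95% of genes, −0.291 to 0.320 in ESC-FCS and −0.228 to 0.292 in the control cells. No limit on the mean was set for the marker list. Dppa5a had 4 and 1 molecules in the 2 sets, Pou5f1 4 and 2, and Klf4 6 and 4, too few for their signs to be read. These values describe 33 and 42 cells that share a label and library batches, and no p is given.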
